A study of Mus musculus with 6 samples.

Results

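The contacts described here are those of the mouse Ikzf1 bait with the distant part of its own chromosome, measured in CD4+/CD8+ (double-positive, DP) thymocytes. The members were all DpnII restriction fragments of chromosome 11 with a midpoint beyond 40 Mb in the mm9 assembly. They were defined by position, with earlier results of these data known. They numbered 203378 of the 295446 fragments listed for this chromosome, and of 1928618 fragment entries in the whole series. Their midpoints lay 28.4 to 110 Mb from the bait. The bait, at chr11:11583520, lies 1.49 kb upstream of the annotated start of Ikzf1 (ENSMUSG00000018654.10, chr11:11585006-11672929, plus strand).

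The series holds 6 4C-seq libraries from mouse cells, read from 3 baits: the Sox2 control region (SCR), an enhancer cluster of Sox2, in embryonic stem (ES) cells (2 libraries) and in cells differentiated in vitro towards neural precursors (NPC, 1 library), Satb1 in ES cells and in DP thymocytes (1 library each), and Ikzf1 in DP thymocytes (1 library). The DP cells came from the thymus of c57/Bl6 mice aged 4 weeks, were sorted by FACS on CD4 and CD8a, and were fixed with 2% formaldehyde for 10 min. The number of mice is not given in the sources used here. In 4C, fixed chromatin is cut with a first enzyme (here DpnII, which cuts at GATC), religated, cut again with Csp6I (GTAC) and circularised, and the fragments joined to the bait are amplified by inverse PCR and sequenced.

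The Ikzf1 library held 2314166 reads on chromosome 11, of which 73.3% fell within 1 Mb of the bait, where 21.5% of fragments had a read. With 1 library for this bait, no difference below has a replicate check and no test between samples was possible. The intervals given are exact Clopper-Pearson 95% intervals, which cover counting error only, since PCR duplicates cannot be told from separate ligations. 4C counts carry no RNA, so the labelled cell type could not be checked against marker genes. They also average over cells, so that a contact made in few cells and a weaker contact made in many cannot be told apart.

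Ikzf1 encodes Ikaros, a zinc finger transcription factor that lymphocyte development depends on and that is active in thymocytes. Contacts between regions many megabases apart on 1 chromosome are rare in any given cell, become rarer with distance, and are generally more frequent between regions of the same chromatin state. Active, gene-rich chromatin and inactive, gene-poor chromatin tend to lie in separate nuclear compartments. The distant part of mouse chromosome 11 holds several gene groups known for lymphocyte function, among them the T helper 2 cytokine genes and the CC chemokine genes, and also genes of neurons, muscle and skin.

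To show what a distant contact looks like as a measured unit, 4 detected fragments are printed, each the one with the most reads among fragments of its region of 100 to 300 bases, outside exons and with both ends unique in the genome. All are mm9 sequence on the plus strand. The first (chr11:44405800-44405950, 238 reads) is intergenic, 24.9 kb from the start of Ebf1, in the bin with the highest ratio. The second (chr11:54324689-54324910, 1828 reads) lies in an intron of Fnip1 near the cytokine genes and had the 3rd highest count of all members. The third (chr11:83332069-83332202, 130 reads) lies in an intron of Gm11435 in the chemokine bins, and the fourth (chr11:41629772-41629885, 12 reads) in an intron of A230004M16Rik in the bin with the lowest ratio. Capitals mark the DpnII site GATC at the start of each fragment and any Csp6I site GTAC inside it.
Ebf1 upstream: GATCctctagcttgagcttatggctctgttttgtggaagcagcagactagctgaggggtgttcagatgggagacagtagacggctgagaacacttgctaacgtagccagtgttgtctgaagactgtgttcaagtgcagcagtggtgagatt
Fnip1 intron: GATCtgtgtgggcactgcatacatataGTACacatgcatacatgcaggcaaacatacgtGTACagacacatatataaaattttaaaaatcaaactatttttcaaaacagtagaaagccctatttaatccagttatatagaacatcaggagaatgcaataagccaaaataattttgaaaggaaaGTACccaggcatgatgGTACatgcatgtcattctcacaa
Gm11435 intron: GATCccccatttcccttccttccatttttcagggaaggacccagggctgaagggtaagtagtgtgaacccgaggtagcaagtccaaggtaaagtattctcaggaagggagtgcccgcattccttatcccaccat
A230004M16Rik intron: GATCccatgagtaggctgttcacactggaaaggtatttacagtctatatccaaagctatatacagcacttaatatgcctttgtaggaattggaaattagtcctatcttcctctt

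A fragment was called detected when it had at least 1 read. Beyond 40 Mb, 2555 of 203378 fragments were detected, a share of 1.26% (1.21% to 1.31%). They were 47.1% of all detected fragments of the chromosome but held 14.9% of its reads. Detected fragments had a median of 26 reads (quartiles 6 and 178, highest 3066), and 273 of them (10.7%) had a single read. The 100 fragments with the most reads held 28.5% of the 345139 reads, so the detected share was used in place of the read sum. Among detected fragments, the next fragment along the chromosome was also detected in 65 cases (2.54%), against the share of 1.26% over all fragments. Of the printed fragments, only that in Fnip1 contains GTAC. Over all members, fragments with an internal GTAC site were detected at 1.31% and those without at 1.21%. Detection was lower where reads cannot be placed. The 157750 fragments whose 25-base sequences at both ends were unique among all DpnII ends of the genome had a share of 1.38%. The 16929 fragments with neither end unique had a share of 0.331%.

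Detection fell with distance from the bait. The odds of detection followed distance with an exponent of -0.47 (SE 0.052, from a logistic fit over fragments), so that the expected share went from 1.79% in the first 1 Mb bin to 0.969% in the last. The fall was not even. In successive 10 Mb stretches from 40 Mb to 110 Mb the measured shares were 1.49%, 1.78%, 1.29%, 1.34%, 1.26%, 0.957% and 1.06%, and the remaining stretch to the chromosome end had 0.912%. The stretch from 50 to 60 Mb thus stood above the nearer one from 40 to 50 Mb. All further values are given as the ratio of detected fragments to the number expected from distance.

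**Figure D1:**
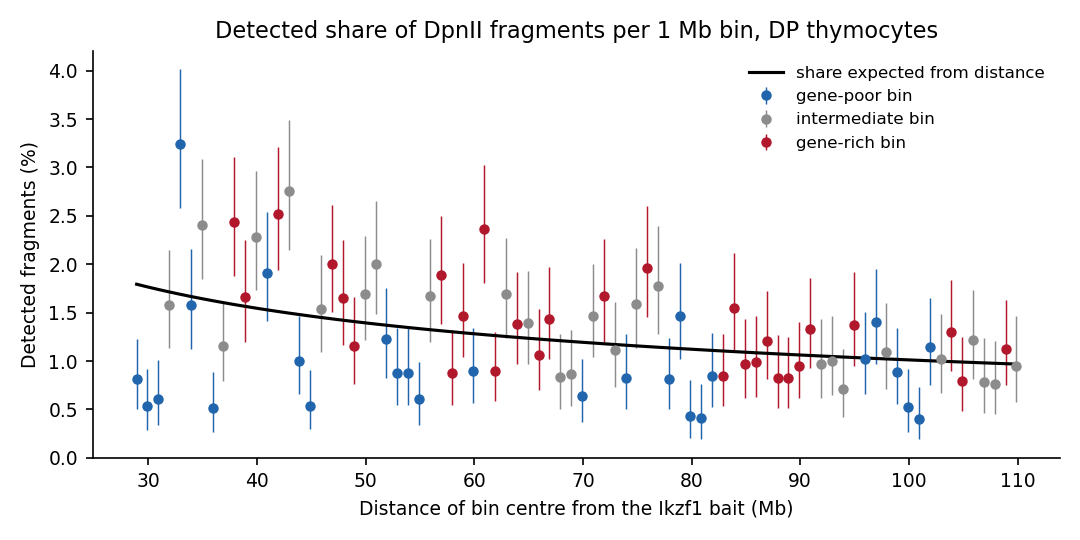
Detected share of DpnII fragments (%, y axis) in each of the 82 bins of 1 Mb against distance from the Ikzf1 bait in Mb (x axis). Points are bins coloured by gene class, bars are exact 95% intervals for counting error, and the black line is the share expected from distance, which fell from 1.79% to 0.969%.

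The 82 bins held 2103 to 2913 fragments each, with 10 to 80 of them detected (median 27). Their ratios ran from 0.303 to 1.92, a 6.33-fold range around a median of 0.951. A bin counted as high when its ratio was more than 25% above the expectation and as low when it was more than 20% below. By this rule 23 of 82 bins were high (28.0%) and 28 were low (34.1%). The interval excluded the expectation in 13 bins above it and 14 below it. Alternate fragments were also counted separately. Across the 82 bins the ratios from odd and from even fragments had a Pearson r of 0.68 and a Spearman rho of 0.67, as a description of odd and even fragments of the same library. Neighbouring bins resembled each other little, with r of 0.14 over 81 pairs.

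The 5 bins with the highest ratios lay between 44 and 88 Mb. The highest, from 44 to 45 Mb, had 80 of 2470 fragments detected (3.24%, expected 1.69%), a ratio of 1.92 (1.52 to 2.38). It holds only 4 protein-coding starts: Ebf1, which encodes a transcription factor of B lineage commitment, Il12b, which encodes the shared subunit of interleukins 12 and 23, Rnf145, which encodes a ubiquitin ligase, and Ublcp1, which encodes a phosphatase that acts on the proteasome. The bin from 72 to 73 Mb had 61 of 2584 (ratio 1.85, 1.42 to 2.37). Its longest genes are Zzef1, Ankfy1 and Ube2g1, and it also holds Itgae, the gene of the CD103 integrin chain of intraepithelial T cells. The bin from 54 to 55 Mb had 67 of 2429 (ratio 1.84, 1.43 to 2.33) and holds Csf2 and Il3 beside Rapgef6, Fnip1 and Cdc42se2. The bin from 87 to 88 Mb had 48 of 2441 (ratio 1.71, 1.26 to 2.26), with Tex14, Ppm1e and Cuedc1 as its longest genes and no gene of the lists. The bin from 53 to 54 Mb had 63 of 2499 (ratio 1.67, 1.28 to 2.13) and holds Il4, Il13, Il5 and Irf1. Being picked as the extremes of these same values, the bins are a description and not a test.

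The 5 bins with the lowest ratios held few genes, among them genes known from neurons and muscle. The lowest, from 41 to 42 Mb, had 13 of 2431 fragments detected (0.535%, expected 1.77%), a ratio of 0.303 (0.161 to 0.517). It holds 2 protein-coding starts. The next bin along, from 42 to 43 Mb, had 15 of 2451 (ratio 0.352) and holds Gabrb2 and Gabra6, which encode subunits of the inhibitory GABA-A receptor of the brain, together with Atp10b. In the body of Gabrb2 2 of 470 fragments were detected against 8.2 expected. In that of Gabra6 it was 0 of 23. The approximate bound of 3 over the number of fragments allows a share of up to about 13%, so this short gene carries no weight. The bin from 47 to 48 Mb (12 of 2353, ratio 0.314) is taken up by Sgcd, which encodes delta-sarcoglycan of the muscle membrane. Across the 1093 kb of Sgcd itself, 19 of 2589 fragments were detected where 42.2 were expected. The bin from 56 to 57 Mb (14 of 2593, ratio 0.369) holds Gria1, an AMPA glutamate receptor gene, in which 4 of 825 fragments were detected against 12 expected. The bin from 92 to 93 Mb (10 of 2404, ratio 0.373) holds Car10, a carbonic anhydrase-related gene of the brain, in which 5 of 1277 were detected against 14.2 expected. In these bins 81.3% to 87.1% of fragments had a unique end, against 95.1% in the bin from 72 to 73 Mb. Counting only fragments with a unique end left the lowest bin at 0.275.

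**Figure D2:**
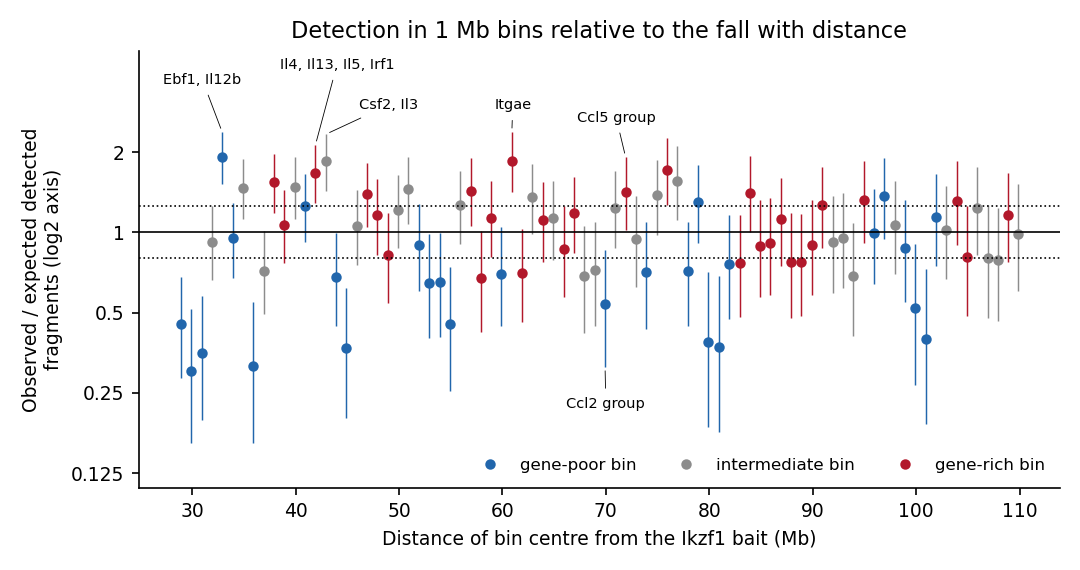
Ratio of observed to expected detected fragments in each 1 Mb bin (y axis, log2 scale) against distance of the bin centre from the Ikzf1 bait in Mb. Bars are exact 95% intervals for counting error, dotted lines mark 25% above and 20% below expectation, and the bins with Ebf1, the cytokine genes and Itgae reach 1.67 to 1.92 while the lowest gene-poor bins lie near 0.3.

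Low bins were mostly poor in genes. The bins were sorted into 3 classes by their number of protein-coding starts. Detection was lower than expected in the 27 gene-poor bins (0 to 8 starts), at a pooled ratio of 0.732 (0.677 to 0.791), and 18 of them were low and 4 high. The 26 intermediate bins (9 to 20 starts) had a ratio of 1.13 (1.05 to 1.2), with 5 low and 8 high. The 29 gene-rich bins (21 to 79 starts) had a ratio of 1.15 (1.08 to 1.22), with 5 low and 11 high. The highest gene counts brought no higher ratio. The 12 bins with at least 30 starts, a group formed after the values were seen, had a ratio of 0.999 (0.897 to 1.11), and 4 of them were low and 3 high. Over the 82 bins the ratio and the gene count had a Spearman rho of 0.44 and a Pearson r of 0.27. These points share 1 library, and gene count itself went with the GC content of the bin (rho 0.65).

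Base composition and mappability moved with gene class, from 42.9% GC and 89.9% of fragments with a unique end in gene-poor bins to 46.9% and 92.8% in gene-rich bins. Adding GC content, fragment length, uniqueness and the GTAC site to the expectation left ratios of 0.758, 1.11 and 1.13 in the gene-poor, intermediate and gene-rich bins. Reads per detected fragment were alike in the 3 classes (133, 137 and 134), so the classes differed in how many fragments were detected and hardly in the reads on each.

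Runs of at least 2 neighbouring bins of the same class showed the same contrast with more fragments each. The 7 gene-rich runs (23 bins, 775 protein-coding starts) had 772 detected fragments against 709.9 expected, a ratio of 1.09 (1.01 to 1.17). The 7 gene-poor runs (22 bins, 91 starts) had 523 against 708.4, a ratio of 0.738 (0.677 to 0.804). Gene-rich runs thus stood 1.47-fold above gene-poor runs (1.32 to 1.65). The contrast was 1.66 (1.44 to 1.93) from 40 to 80 Mb and 1.23 (1.03 to 1.47) beyond 80 Mb. The difference between these stretches was not tested.

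The runs were not uniform. The run from 40 to 43 Mb was the lowest at 0.372 (0.277 to 0.490), and only 78.3% of its fragments had a unique end. The gene-poor runs from 55 to 57 Mb (0.524), 63 to 67 Mb (0.660), 89 to 94 Mb (0.714) and 110 to 114 Mb (0.731) were also below expectation. A pair of gene-poor runs went the other way. The run from 44 to 46 Mb, which holds Ebf1, was at 1.44 (1.19 to 1.71), above every gene-rich run, and the run from 107 to 109 Mb was at 1.18 (0.897 to 1.52). Among gene-rich runs the ratios were 1.31 at 49 to 51 Mb, 1.13 at 58 to 61 Mb, 1.08 at 68 to 71 Mb, 1.2 (1.00 to 1.54) at 72 to 74 Mb, whose bins were at 1.85 and 0.707, 1.02 at 77 to 79 Mb and 1.06 at 115 to 117 Mb. The longest gene-rich run, from 94 to 103 Mb with 330 starts, was at expectation (0.974, 0.855 to 1.10).

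**Figure D3:**
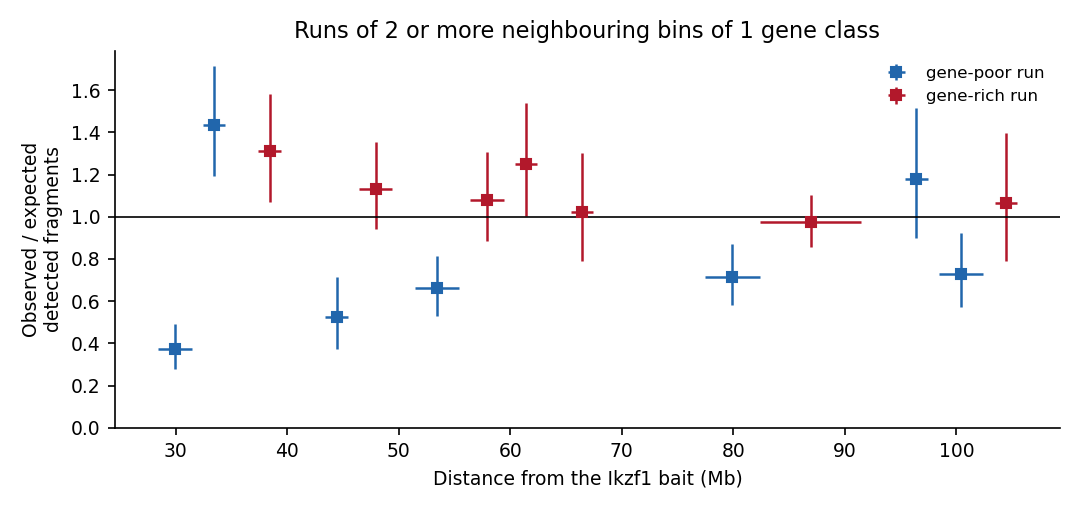
Ratio of observed to expected detected fragments (y axis) in the 7 gene-rich and 7 gene-poor runs against distance from the Ikzf1 bait in Mb. Horizontal bars span each run and vertical bars are exact 95% intervals for counting error; 5 of the 7 gene-poor runs lie between 0.372 and 0.731, and the gene-poor run with Ebf1 lies at 1.44.

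Finer steps located the high counts at 44 to 45 Mb in a narrow stretch. Of 818 steps of 100 kb, 95 had no detected fragment and the median step had 3. The step from 44.3 to 44.4 Mb had 33 of 242 fragments detected (13.6%, 9.58% to 18.6%), where 4.1 were expected, and its ratio of 8.05 was the highest of all steps. The step before it, from 44.2 to 44.3 Mb, had 14. The other 8 steps of the bin had 2 to 6 each. The top step covers Rnf145, in whose gene body (chr11:44332466-44379022) 15 of 104 fragments were detected against 1.76 expected. The body of Ebf1 (chr11:44430819-44821593), just beyond, had 17 of 897 against 15.1 expected. The high count beside Ebf1 was therefore upstream of its start and not along Ebf1. It lay partly in Rnf145, whose body held 15 of the 33 detected fragments of the top step.

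**Figure D4:**
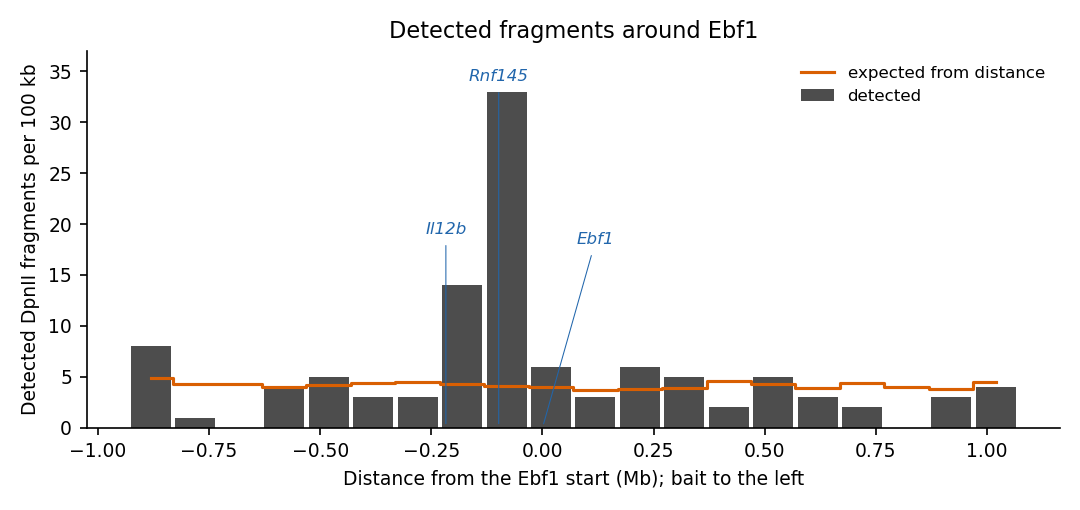
Detected DpnII fragments per 100 kb step (bars, y axis) against distance from the Ebf1 start in Mb (x axis), with the number expected from distance as an orange line. The step that contains Rnf145 reaches 33 against 4.1 expected, and the steps along Ebf1 stay at 2 to 6.

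Lymphocyte genes were compared through the 200 kb window centred on each gene start. The gene lists here and below were chosen with earlier results of these data known, so their pooled values are a description and not a test. As background, 562 of the 1434 windows around protein-coding starts beyond 40 Mb (39.2%) stood more than 25% above expectation and 476 (33.2%) more than 20% below, with a median ratio of 1.06. Windows of neighbouring genes share fragments and are not independent. The 17 genes of lymphocyte signalling, surface and transcription reported here had 10 windows above and 4 below these limits and a median of 1.54. Pooled, their windows had 158 of 7358 fragments detected where 87.05 were expected, a ratio of 1.82 (1.55 to 2.12). Against the share of the bins they lie in, the pooled ratio was 1.39. Without Il12b and Ebf1, which lie in the highest bin, it was 1.55 (1.28 to 1.87) against distance and 1.34 against the bins. The 4 of these genes nearer than 80 Mb had 2.58 (2.05 to 3.19), and the 13 beyond had 1.38 (1.09 to 1.73).

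Ebf1 had the highest window of these genes, with 27 of 470 fragments detected and a ratio of 3.4 (2.26 to 4.88), which ranked sixth of the 1434 windows. Its detected fragments fell 14 and 13 on odd and even fragments, and 17 of them had at least 10 reads. This window takes in the whole body of Rnf145, which held 15 of the 27 detected fragments. The windows that ranked first and second, around Rnf145 (5.87) and Ublcp1 (5.36), overlap those of Ebf1 and Il12b. Itgae had 18 of 532 (2.67, 1.59 to 4.17), Il12b 22 of 521 (2.49), and Ccr7, the receptor gene for homing to lymph nodes, 13 of 494 (2.44, 1.31 to 4.14). Ccr7 lies inside the long gene-rich run that was at expectation, and its ratio against its own bin was 2.65.

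Other genes of T cell signalling and regulation in the list had intervals that included the expectation or nearly reached it. Grb2, a receptor adaptor, was at 2.19 (1.06 to 3.99), Map3k14, the kinase of non-canonical NF-kB signalling, at 2.04 (0.985 to 3.73), and Ikzf3, which encodes the Ikaros relative Aiolos, at 1.85 (0.893 to 3.38). Tcf7, which encodes the T lineage factor TCF-1, had 14 of 514 detected (1.77, 0.974 to 2.95). The retinoic acid receptor gene Rara was at 1.54 and the cytokine signalling inhibitor gene Socs3 at 1.33. The B cell receptor component gene Cd79b was at 1.12 and Stat3 at 1.05. Cd7 was at 0.827. The 4 low windows were those of Stat5a (4 of 520, 0.721), Icam2 (3 of 505, 0.572), Stat5b (3 of 517, 0.544) and Tbx21 (2 of 531, 0.346), which encodes the T helper 1 factor T-bet. Each of these 4 intervals included the expectation, so at this depth no low window of the list was distinguishable from it. Measured as mean reads, with counts capped at the 99th percentile of detected fragments, Tcf7 stood at 0.809 and Map3k14 at 0.816, below expectation, while Ebf1 was at 1.87, Grb2 at 5.14 and Stat3 at 2.55. On fragments with a GTAC site Map3k14 was at 0.938, Socs3 at 0.557, Stat3 at 0.861 and Ccr7 at 4.24. The windows of Tbx21, Stat5a and Stat5b had 0 of 203, 0 of 214 and 0 of 219 such fragments detected. The approximate bound of 3 over the number of fragments, not an exact interval, allows shares of up to about 1.48%, 1.4% and 1.37%.

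The cytokine genes lay in a pair of high bins, and the surroundings of the genes stood no higher than the rest of those bins. From 53 to 55 Mb, 130 of 4928 fragments were detected (2.64%, expected 1.5%), a ratio of 1.75 (1.47 to 2.08). Of the 7 windows in this list, 5 stood more than 25% above expectation and 0 more than 20% below. The highest were those of Irf1, an interferon-regulated transcription factor gene, with 17 of 515 (2.18, 1.28 to 3.46), and of the T helper 2 cytokine gene Il5 with 16 of 489 (2.16, 1.24 to 3.48). Rad50, a DNA repair gene whose introns hold the control region of the T helper 2 cytokine genes, had 15 of 487 (2.04, 1.15 to 3.33). Il13 was at 1.60 (0.829 to 2.76) and Il4 at 1.48 (0.741 to 2.62). Csf2 (8 of 473, 1.13) and Il3 (9 of 487, 1.23), the growth factor genes for myeloid cells, were nearest to expectation although their bin was the higher of the pair. Pooled, the 7 windows were at 1.65 (1.15 to 2.29) against distance and at 0.960 against the bins they lie in. The bins' ratio depended on where the edges were set, as it was 1.47 with edges moved by 0.5 Mb and 1.35 in bins of 2 Mb. By capped mean reads the windows of Il4 (0.631) and Il13 (0.783) stood below expectation, and those of Il5 (2.32), Rad50 (2.33) and Irf1 (2.17) above it.

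The chemokine genes showed no common direction. From 81 to 84 Mb, 96 of 7700 fragments were detected (ratio 1.05, 0.852 to 1.28). The 3 bins differed among themselves, at 0.537 (0.313 to 0.858) from 81 to 82 Mb, 1.24 (0.876 to 1.69) from 82 to 83 Mb and 1.42 (1.02 to 1.91) from 83 to 84 Mb, where capped mean reads gave 0.821. The first bin holds the genes of the monocyte and eosinophil attractants Ccl2, Ccl7, Ccl8, Ccl11 and Ccl12, whose windows overlap and lay between 0.774 and 1.08. Against the share of the bins they lie in, these windows stood higher, at 1.44 (Ccl7) to 2.00 (Ccl11), so the low bin value was not that of the windows. By capped mean reads those of Ccl7, Ccl8, Ccl11 and Ccl12 were at 0.153 to 0.235. The last holds Ccl3, Ccl4, Ccl5, Ccl6 and Ccl9. Ccl6 (1.27) and Ccl9 (1.33) lay on the other side of expectation by capped mean reads, at 0.548 and 0.575. Ccl5, a chemokine gene of activated T cells, had the highest window of the 11 (11 of 460, 2.03, 1.02 to 3.59), and Ccl4 the lowest (3 of 515, 0.494, 0.102 to 1.44). The Ccl5 window was at 1.35 by capped mean reads and at 1.21 on fragments with a GTAC site. In all, 3 windows were above the limits and 4 below, and the median was 0.905. Pooled, the 11 windows were at 1.08 (0.706 to 1.58) against distance and at 1.01 against the bins they lie in. Ccl1 (1.01) is annotated over 129 kb in this gene set, so its window is centred on the far end of that span. That window overlaps the Ccl8 window only at its edge.

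**Figure D5:**
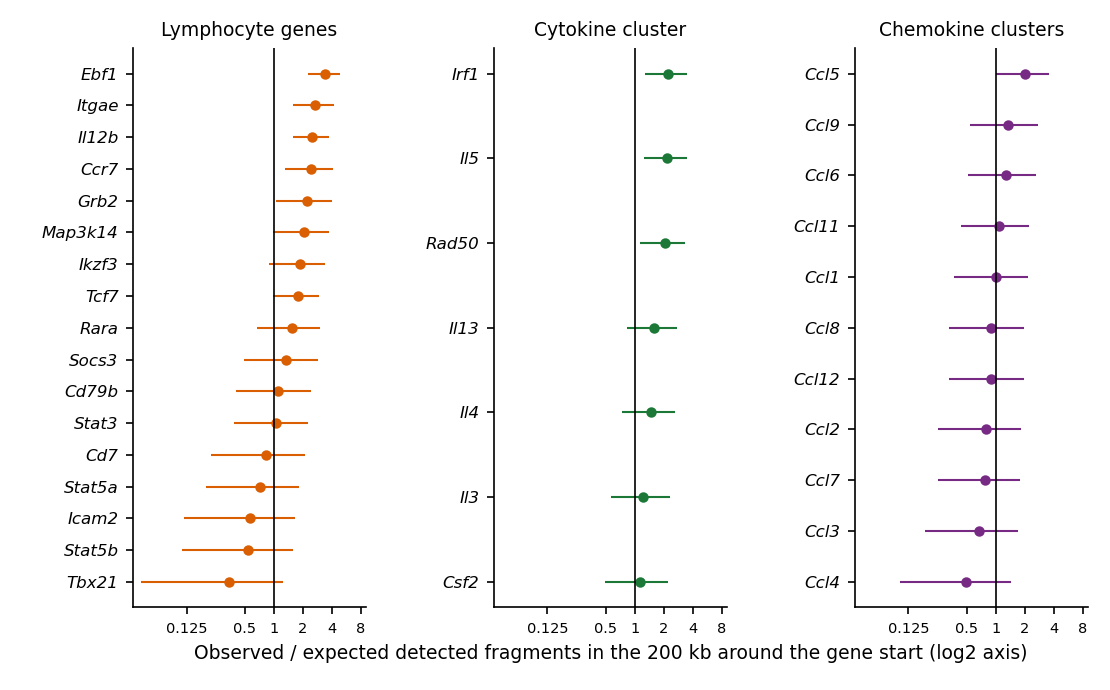
Ratio of observed to expected detected fragments in the 200 kb around each gene start (x axis, log2 scale) for the 17 lymphocyte genes, 7 cytokine cluster genes and 11 chemokine genes, each ordered by ratio. Points are windows and bars are exact 95% intervals for counting error; Ebf1 stands at 3.4, Tbx21 at 0.346, and most chemokine intervals include 1.

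Clusters of genes of other tissues were pooled for comparison. They were the keratins and keratin-associated proteins of skin and hair, the skeletal muscle myosins, the Hoxb genes of body patterning and the olfactory receptors. Together they had 97 of 9966 fragments detected (ratio 0.754, 0.612 to 0.919). With covariates the pooled ratio was 0.901 (0.731 to 1.10), an interval that included the expectation, and on fragments with a unique end it was 0.84. The keratin cluster (chr11:99094075-100131185) had 12 of 2646 (0.422, 0.219 to 0.737), and 91.1% of its fragments had a unique end. The cluster lies in a gene-rich run, and its own 49 genes count towards that class. Its near end overlaps the Ccr7 window described above. The myosin cluster (chr11:66891802-67185088) had 5 of 783 (0.480, 0.156 to 1.12). The Hoxb cluster had 7 of 427 (1.5, 0.605 to 3.06), with at most 22 reads on any fragment, and 0.141 by capped mean reads. The olfactory receptor clusters had 73 of 6110 (0.857, 0.673 to 1.08), and only 68.4% of their fragments had a unique end.

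Within bins, detection was higher in protein-coding genes than between genes. Fragments in protein-coding gene bodies were detected at 1.42% (1483 of 104735) and intergenic fragments at 1.10% (981 of 89069). Relative to their own bins the ratios were 1.07 and 0.934, a difference of 1.14-fold (1.05 to 1.24). Fragments within 5 kb of a protein-coding start had the higher share of 1.64% (508 of 30940) and stood at 1.22 (1.12 to 1.33) relative to their bins. Unique ends were also more frequent in gene bodies (94.9%) than between genes (88.2%). With covariates the difference between gene bodies and intergenic fragments was smaller, at 1.08-fold, and on fragments with a unique end it was 1.102-fold. Other settings raised it, to 1.204 on fragments with a GTAC site, 1.24 by capped mean reads and 1.26 in bins of 2 Mb.

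The same measures were taken elsewhere, as values side by side with no test. On chromosome 11 from 5 Mb past the bait to 40 Mb, 1.86% of 57338 fragments were detected. Gene-rich runs there stood 5.11-fold above gene-poor runs (4.05 to 6.51) and the rho with gene count was 0.86 over 23 bins. Classes here and in the stretches below were set by the tertiles of each stretch's own gene counts, which were 1.33 and 5.67 starts per bin here, 3 and 9 on chromosome 3, 3.67 and 9.33 on chromosome 17 and 6.67 and 17.3 for the Ikzf1 library cut to the chromosome 17 distances, against 9 and 21 beyond 40 Mb. At the same distances on chromosome 3, the Sox2 SCR bait had 0.422% and 0.645% detected in the ES libraries and 0.945% in NPC, with gene-rich over gene-poor ratios of 2.59, 3.61 and 2.22. For Satb1 on chromosome 17, where distances end at 49 Mb, the DP library had 1.00% detected and a ratio of 0.977 (0.755 to 1.26), and the ES library 1.35% and 0.386 (0.313 to 0.474). Cut to those distances, the Ikzf1 library had 1.62% and a ratio of 2.36 (1.74 to 3.26), over 6 gene-rich and 3 gene-poor bins. Its fragments (51577 in 21 bins) all lay past the bait. The stretches on chromosomes 3 and 17 took in both sides of the bait, which gave 87187 fragments in 36 bins for Satb1, so they are not like stretches. Each stretch had its own distance exponent, so the same fall was not removed from these ratios. For the cut Ikzf1 library it was 0.603, a rise with distance. It was -0.19 for Satb1 in DP and -2.004 in ES cells. For the SCR bait it was -1.03 and -0.932 in the ES libraries and -0.777 in NPC. Bait, chromosome, gene density, cell type, read length and depth differ among these libraries, and their part in the values cannot be told apart. The Satb1 libraries share bait and chromosome but differ in cell type.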

How the data were processed

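4C-seq of the Ikzf1 promoter in DP thymocytes was analysed from 1 library, beside 5 libraries of other baits. Before deposit, the authors cut off the bait part of each read, with 2 mismatches permitted, and aligned the remaining 25 bases to the mm9 genome. The submitters' processing notes name Bowtie version 1.0.0 as the aligner. Aligned reads were assigned to DpnII fragments. The deposited values are raw read counts per fragment, with no normalization and no removal of PCR duplicates. The study's user guide describes a filter on fragments above 2% of reads, but 1 fragment here holds 5.37%, so whether it was applied is unclear, and shares of reads depend on it. The labels and the methods of the study describe different SDS treatments for DP nuclei.

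All 295446 listed midpoints matched DpnII fragments of the mm9 sequence. Genes are from GENCODE vM1. Detection (at least 1 read) was fitted by logistic regression on the natural log of distance (statsmodels version 0.14.6, Python version 3.11.15). Expected shares were summed over 1 Mb bins and 200 kb gene windows, and gene classes are tertiles of protein-coding starts per bin. The script was tested on simulated data. Named are the genes of the lists and, in the 5 highest and 5 lowest bins, list genes and the 3 longest protein-coding genes; Rnf145 and Ublcp1 were added after their values were seen. The members and lists were chosen with earlier results of these data known. Some genes of the lists and bins, and a window overlapping one of them, are not reported here.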

Additional observations from a re-analysis of the deposited data

How the results depend on the processing

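Alternatives covered fragments with at least 10 reads, with an internal GTAC site or with a unique end, other distance fits, covariates, other bins and run lengths, capped mean reads, all genes in place of protein-coding ones, leaving out the last 5 Mb and, added after the data were seen, counting neighbouring detected fragments once and leaving out the windows of Il12b and Ebf1. Of 93 recomputed values, 84 stayed within their interval or tolerance, and none whose interval excluded the expectation changed direction. The chemokine ratio ran from 0.880 to 1.21, to both sides of expectation. In bins of 2 Mb, 15 bins passed the limits, against 51 of 82 in bins of 1 Mb. Bins of 2 Mb are fewer in all, so these counts do not share a total. In bins of 2 Mb the gene-rich over gene-poor ratio was 1.21, the cytokine ratio 1.35 and the gene body ratio 1.26. With edges shifted by 0.5 Mb the cytokine ratio was 1.47. The distance exponent was -0.30 in a fit from 5 Mb, -0.59 with covariates and -0.57 on fragments with a GTAC site. The rank correlation with gene count was 0.30 with capped mean reads. The pooled lymphocyte ratio was 1.55 without Il12b and Ebf1. Some of these settings hold fewer bins or genes. Why the values moved was not tested. Among single windows, clusters and bins, 21 of 511 recomputed values left their interval and 30 lay on the other side of expectation. Of those 30, 1 came from an interval that excluded it, that of the bin from 83 to 84 Mb, at 0.821 with capped mean reads. No paired analysis was possible because the Ikzf1 bait has 1 library.

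Depth limits the windows of the listed genes, which had 2 to 27 detected fragments each.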
